A study of Mus musculus with 8 samples.

Results

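Meg3, Miat, Malat1, Neat1, Rian and Snhg11 are long noncoding RNAs, or are usually classed as such, that neural and glial cells transcribe. Members were taken by gene symbol. Of the 6 listed, 5 had a row among the 31058 genes and reporter elements counted, and Rian was not analysed here. Their levels were described in single cells sorted from the dentate gyrus of Ki67TD-NES mice, which carry Nestin-GFP, a Ki67-creERT2 allele and a tdTomato reporter that cre switches on. Nestin-GFP marks neural stem cells (NSCs) but also other cells of the niche, and creERT2 is made only in cycling cells, so tdTomato marks cells that divided while tamoxifen was given and their progeny. All mice, at every age, received tamoxifen by mouth on consecutive days, and several male and female mice were pooled in each experiment, so no value belongs to 1 animal.

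The 7 experiments comprised 1 at 1 month, 3 at 2 months and 3 at 6 months of age. The oldest group is labelled 6 months, and the authors give its age as 6 to 8 months. Libraries of 2-month-old mice were made with 10x 3′ chemistry Version 2 and the others with Version 3, so that this age and this chemistry cannot be told apart. GFP+tdT+ and GFP+tdT- cells were sequenced together, except in experiment 1 at 2 months, where 1 library was labelled as GFP+tdT+ and GFP-tdT- cells and another as GFP+tdT- cells. The sorted source of these cells rests on that label alone. The 8 libraries held 4861883 to 43826338 unique molecular identifiers (UMIs, each standing for 1 captured RNA molecule), with medians of 2061 to 7768.5 per kept cell. Of 26036 barcodes, 24376 passed the filters, and 51 barcode sequences of kept cells occurred in more than 1 library. Cells were assigned to types by counting detected marker genes, which gave a type to 20421 cells (83.8%).

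The gates gave 849 NSCs, 489 intermediate progenitors (IPCs), 2434 neuroblasts, 1638 astrocytes, 5976 oligodendrocyte precursors (OPCs), 184 committed oligodendrocyte precursors (COPs), 6713 oligodendrocytes, 919 mural cells, 457 endothelial cells and 698 microglia. In each of these the type's own markers were all detected. In IPCs a median of 6 IPC markers and 3 neuroblast markers was detected, but these lists summed to 3478 and 3544 CPM. Of the IPCs 231, and of the NSCs 309, had only the smallest lead over another marker list that the gate allowed. The gate named immature granule neuron used markers such as Rbfox3, Snap25 and Syn1, which do not tell immature from mature neurons. Neuroblast markers summed to 1002 CPM in its cells, against 12257 CPM in neuroblasts. Immature granule neurons were few. Of 44 such cells, 26 came from experiment 1 at 2 months, all of them from the library labelled with GFP-tdT- cells, as did 15 of 16 Cajal-Retzius cells and 649 of the microglia. Levels are given as UMIs of the gene per 1000000 UMIs of the summed cells (CPM), for each experiment with at least 10 cells of the type, with the SD over experiments. They compare a gene between samples.

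Long noncoding RNAs act as RNA rather than through a protein. Malat1 accumulates in nuclear speckles, bodies that store splicing factors, and Neat1 is the scaffold on which paraspeckles assemble. Miat, also called Gomafu, is a nuclear RNA of neural tissue that binds splicing regulators. Meg3 and Rian are transcribed from the maternal copy of the imprinted Dlk1-Dio3 domain, which also gives many microRNAs. Snhg11 is a host gene of small nucleolar RNAs with high levels in neurons. Adult neurogenesis in the dentate gyrus runs from quiescent NSCs through dividing IPCs to neuroblasts and granule neurons, whereas OPCs give rise to myelinating oligodendrocytes through COPs.

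In GENCODE M21 (GRCm38) Meg3 (ENSMUSG00000021268) lies at chr12:109541001-109571726 on the plus strand with 11 transcripts, and Rian lies downstream at chr12:109603940-109661716. Miat (ENSMUSG00000097767) is at chr5:112213228-112229395 on the minus strand. Malat1 (ENSMUSG00000092341, chr19:5795690-5802672) and Neat1 (ENSMUSG00000092274, chr19:5824708-5845478) are neighbours on the minus strand and single exons in their longest transcripts. Snhg11 (ENSMUSG00000044349, chr2:158375638-158386145) is annotated as protein_coding in that release, and the other measured members as lincRNA.

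The assay primes on runs of A and counts the 3′ parts of transcripts. Whether the counted RNAs ended where the annotated transcripts end was not examined. The last 60 bases of the longest annotated Meg3, Miat, Malat1 and Neat1 transcripts, and of a short Neat1 transcript, are shown 5′ to 3′. Capitals mark a match to the polyadenylation signal (AATAAA or ATTAAA).
Meg3, longest transcript (14548 nt, chr12:109571667-109571726, plus strand): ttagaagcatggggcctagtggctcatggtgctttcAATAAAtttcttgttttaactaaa
Miat, longest transcript (9163 nt, chr5:112213228-112213287, minus strand): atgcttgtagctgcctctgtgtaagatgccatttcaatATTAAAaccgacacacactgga
Malat1, longest transcript (6983 nt, chr19:5795690-5795749, minus strand): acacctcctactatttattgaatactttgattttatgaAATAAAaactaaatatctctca
Neat1, short transcript (3004 nt, chr19:5842307-5842366, minus strand): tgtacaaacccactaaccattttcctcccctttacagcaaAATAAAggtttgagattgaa
Neat1, long transcript (20771 nt, chr19:5824708-5824767, minus strand): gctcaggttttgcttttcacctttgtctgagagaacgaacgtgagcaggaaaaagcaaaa
The signal stood 14 to 18 bases before the end in these transcripts, except the long one of Neat1, whose end held neither AATAAA nor ATTAAA in these 60 bases, and the counts do not separate the Neat1 isoforms.

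Runs of A inside an annotated transcript can also be primed. The longest Malat1 transcript holds 1 run of at least 10 A, of 12 bases, shown with its 24 flanking bases on each side and the run in capitals.
Malat1, positions 6650 to 6709 of the longest transcript (chr19:5795964-5796023, minus strand): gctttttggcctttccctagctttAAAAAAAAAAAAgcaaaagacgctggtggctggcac
The longest Meg3 transcript holds 6 such runs, the longest of 16 bases, and the longest transcripts of Miat, Neat1 and Snhg11 hold none.

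Promoters are shown for Meg3, Snhg11 and Miat, each of which had a higher level in OPCs than in NSCs in 7 of 7 experiments, from 250 bases before to 50 after the start, as given by RefSeq on GRCm38.p6. Capitals mark matches on either strand to TGACGTCA (the cAMP response element), TATAAA (the TATA box) or CAGCTG (an E-box). Of 32851 promoters of this length, 1.79% hold TGACGTCA, 13.6% TATAAA and 16.3% CAGCTG.
Meg3, first start (chr12:109540746-109541045, plus strand): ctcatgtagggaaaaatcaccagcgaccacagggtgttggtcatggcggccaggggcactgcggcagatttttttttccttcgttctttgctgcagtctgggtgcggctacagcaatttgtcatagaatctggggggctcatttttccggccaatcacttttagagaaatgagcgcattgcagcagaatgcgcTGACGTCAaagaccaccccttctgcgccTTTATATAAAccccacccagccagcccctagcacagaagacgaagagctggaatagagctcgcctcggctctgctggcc
Snhg11 (chr2:158375463-158375762, plus strand): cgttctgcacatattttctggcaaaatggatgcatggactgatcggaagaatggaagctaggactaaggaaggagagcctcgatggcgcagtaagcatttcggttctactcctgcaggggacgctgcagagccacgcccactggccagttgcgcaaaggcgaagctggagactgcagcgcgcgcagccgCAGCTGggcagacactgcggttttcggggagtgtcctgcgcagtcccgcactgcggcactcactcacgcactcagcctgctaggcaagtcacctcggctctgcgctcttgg
Miat (chr5:112228899-112229198, minus strand): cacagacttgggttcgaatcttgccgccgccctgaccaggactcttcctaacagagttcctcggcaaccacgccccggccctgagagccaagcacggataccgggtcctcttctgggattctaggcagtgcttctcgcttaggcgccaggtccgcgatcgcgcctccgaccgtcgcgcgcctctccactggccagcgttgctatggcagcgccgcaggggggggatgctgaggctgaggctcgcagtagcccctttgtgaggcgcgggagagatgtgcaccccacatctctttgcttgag
The first Meg3 window held 1 TGACGTCA and 2 overlapping TATAAA matches, 1 on each strand, Snhg11 held 1 CAGCTG, and Miat held none of these letters in this window. The Miat, Snhg11 and first Meg3 windows had 25, 21 and 13 CG dinucleotides, against a median of 7 over all promoters. A second Meg3 window, of a later start (chr12:109545148-109545447, not shown), held none of the marked matches and 1 CG.

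Meg3 was highest among glia in OPCs. Its level there was 502 ± 395 CPM (n = 7 experiments), with a lowest value of 168, a median of 338 and a highest of 1275. In NSCs it was 6.99 ± 7.78 CPM (lowest 0, median 6.21, highest 20.8), and the values of both types did not overlap. Mural cells, the pericytes and smooth muscle of vessels, followed with 285 ± 454 CPM, and COPs with 33.9 ± 31.1 CPM (n = 5). Neuroblasts (13.9 ± 14.8 CPM), astrocytes (10.1 ± 6.68), endothelial cells (3.63 ± 5.66), oligodendrocytes (3.06 ± 3.11) and IPCs (2.21 ± 3.46) were low.

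**Figure D1:**
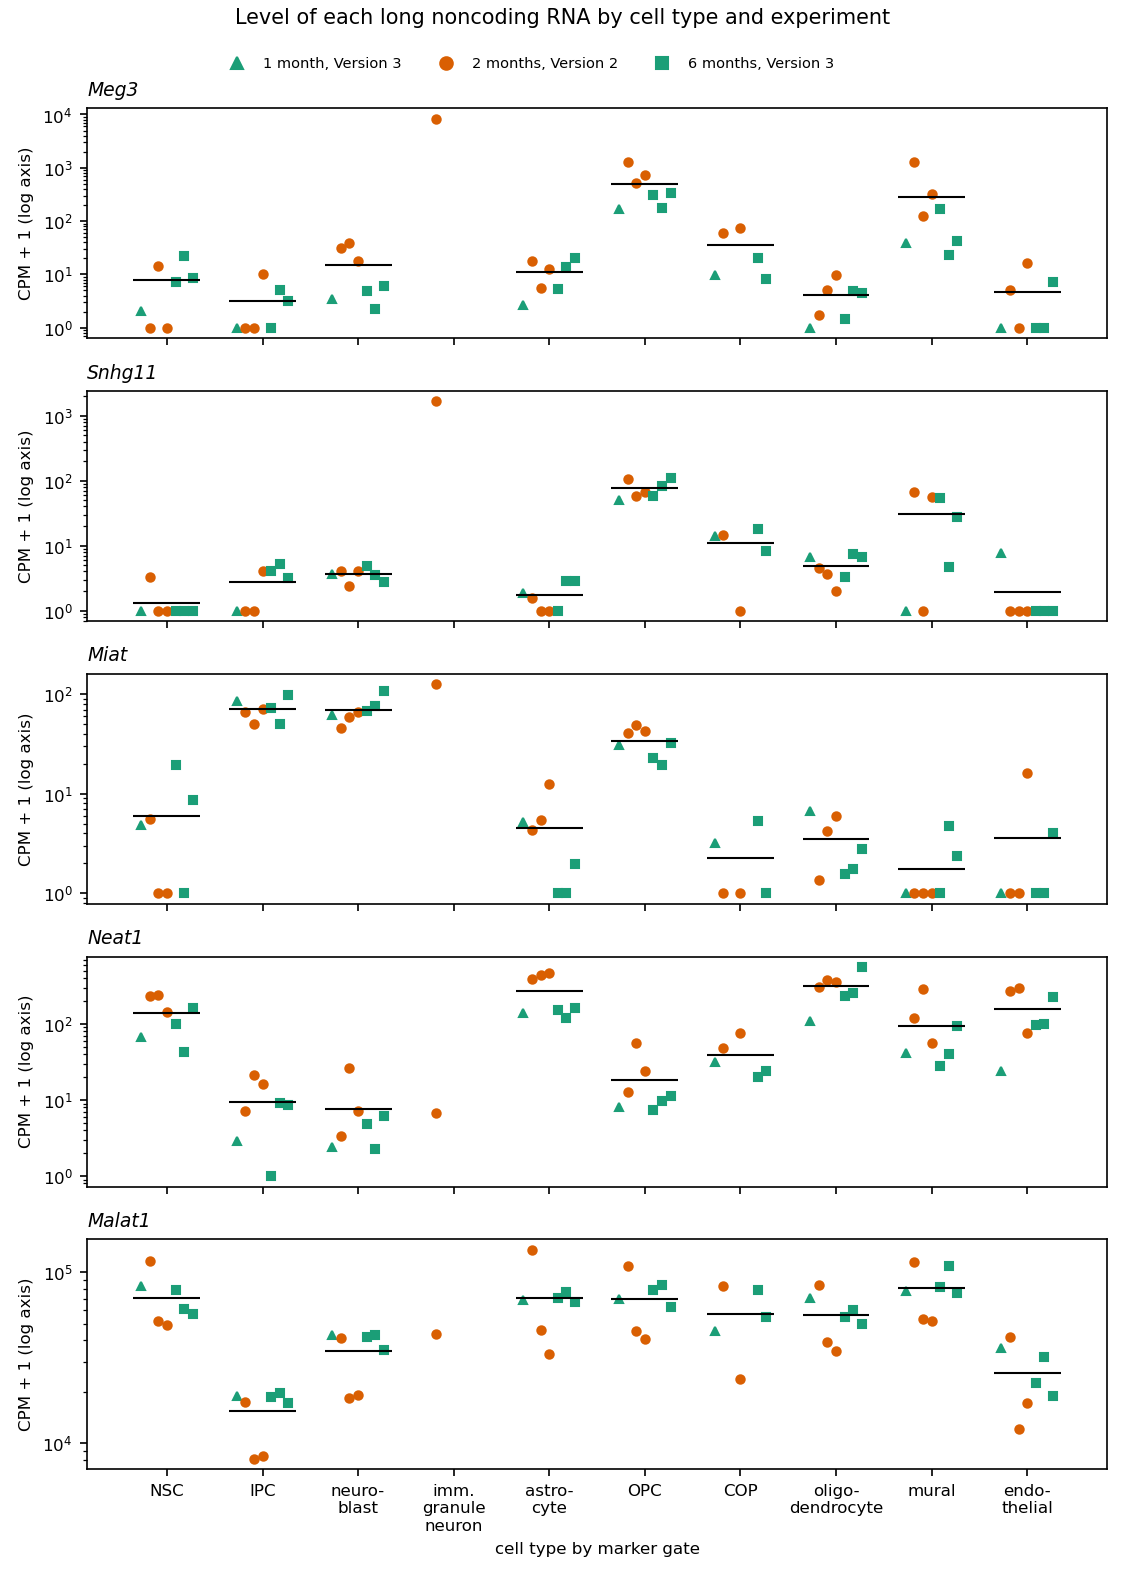
Level of each long noncoding RNA (CPM + 1, log axis) by cell type, with 1 point per experiment of at least 10 cells and a line at the mean. Among the types drawn, which leave out Cajal-Retzius cells, Meg3 and Snhg11 stand highest in immature granule neurons and then OPCs, Miat in the neurogenic types, and Neat1 in oligodendrocytes and astrocytes; the immature granule neurons come from 1 experiment.

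A UMI of Meg3 was found in 67.0% ± 15.1 of OPCs per experiment, against 0.821% ± 0.846 of oligodendrocytes from the same libraries. After thinning every cell to 1500 UMIs these shares were 43.7% ± 20.9 and 0.233% ± 0.21. Median depths were 1311 to 8239 UMIs in OPCs and 2290 to 11236 in oligodendrocytes, and thinning left out 398 and 201 shallower cells. The shares of both types remained apart at equal depth.

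Snhg11 had the same leading glial type at a lower abundance. It stood at 75.1 ± 23.97 CPM in OPCs (lowest 50.1, median 65.5, highest 108) and at 10.2 ± 6.67 CPM in COPs. Oligodendrocytes (3.89 ± 2.06 CPM) and neuroblasts (2.59 ± 0.845 CPM) came next among neural cells, and in NSCs a single UMI was counted in 849 cells. A UMI of Snhg11 was in 23.1% ± 13.3 of OPCs and in 10.1% ± 3.66 after thinning, against 0.0946% ± 0.25 and 0% ± 0 of NSCs.

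Neurons held the highest levels of both genes in the series. In the 26 immature granule neurons of experiment 1 at 2 months Meg3 reached 8324 CPM and Snhg11 1656 CPM, and all of these cells held a Meg3 UMI. In the other 6 experiments, with 1 to 6 such cells each, Meg3 ranged from 132 to 3459 CPM. In the 15 Cajal-Retzius cells, early-born neurons of the marginal zone, Meg3 was at 6401 CPM and Snhg11 at 5175 CPM, while Miat and Neat1 had no UMI. Only 1 experiment held at least 10 immature granule neurons, so the planned comparison with neuroblasts could not be fitted and these levels have no replicate check. Whether the gated granule neurons were immature was not tested.

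Neuroblasts had 13.9 ± 14.8 CPM of Meg3 against 2.21 ± 3.46 CPM in IPCs, a higher level in 6 of 7 experiments with overlapping ranges. Meg3 was below the filter in both types, and this was not tested. Their 154 Meg3 UMIs lay in 2.92% of 2434 cells. The 1693 neuroblasts with at least 3000 UMIs were split by the immature neuron markers left after thinning each cell to that depth, and levels were taken from all UMIs of the cells in each class. Meg3 was at 7.43 ± 15.7 CPM in cells with no such marker, 13.7 ± 19.1 CPM with 1 marker and 8.81 ± 7.73 CPM with 2 or more (n = 7 experiments). Snhg11 stood at 2.99 ± 6.41, 3.34 ± 2.61 and 2.17 ± 2.75 CPM in the same classes. For both genes the ranges over experiments overlapped between these classes.

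The mean of mural cells was carried by experiment 1 at 2 months, with 1287 CPM, while the other 6 experiments lay between 22.5 and 317 CPM. The Meg3 of mural cells was spread over 199 of 919 cells (21.7%), with at most 8 UMIs in a cell. Neuron markers, 25 genes from the lists of granule neurons, interneurons and Cajal-Retzius cells, summed to 99.1 CPM in the mural cells with a Meg3 UMI and to 138 CPM in those without. These cells were pooled over experiments, and median depth was 1320 UMIs with Meg3 and 2350 without. The share with a Meg3 UMI was highest in experiment 1 at 2 months, at 69.6%. The parts of depth and experiment were not tested. Snhg11, in contrast, was counted in 11 mural cells, and 38 of its 46 UMIs lay in 5 of them. Neuron markers summed to 220 CPM in those 11 cells and to 129 CPM in the remaining mural cells, and their part in the result was not tested.

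The other members ordered the types differently. Miat followed its levels in IPCs and neuroblasts, given with their test further on, with 33.02 ± 10.6 CPM in OPCs, and stood at a mean of 0.736 to 4.96 CPM in NSCs, astrocytes, oligodendrocytes, COPs, mural and endothelial cells. The 26 immature granule neurons had 125 CPM of Miat, from 22 UMIs. Neat1 was at 155 ± 106 CPM in endothelial cells, 93.8 ± 90.01 CPM in mural cells and 38.7 ± 22.5 CPM in COPs, between the high level of oligodendrocytes and the low level of neuroblasts, 6.55 ± 8.61 CPM.

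Malat1 was the most abundant member in each type, and took 2.85 to 7.64% of the UMIs of a library. It was at 80674 ± 24456 CPM in mural cells, 57129 ± 24372 CPM in COPs, 56345 ± 17603 CPM in oligodendrocytes and 25783 ± 10943 CPM in endothelial cells. Microglia passed 10 cells in 2 experiments, experiment 1 at 2 months and experiment 1 at 6 months, where Neat1 was at 105 and 114 CPM and Malat1 at 36544 and 26683 CPM, while Meg3, Miat and Snhg11 had 13, 3 and 1 UMIs in 682 cells. In the order of each member by mean level, the ranges of every neighbouring pair of types overlapped.

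OPCs were then compared with NSCs within experiments, a comparison of glial with neural precursors. Of the members, 4 passed the filter of a UMI in at least 20% of cells of either type, and 3 of these passed an adjusted p of 0.05, where 62.6% of all tested genes did (edgeR quasi-likelihood test, Benjamini-Hochberg adjustment over all tested genes, experiment as block). Meg3 and Snhg11 entered only through OPCs, of which 68.6% and 32.5% held a UMI, and Neat1 only through NSCs (32.2%). Members that enter through 1 type had to differ, so this count is no support, and the same holds for Meg3, Snhg11 and Neat1 in oligodendrocytes against OPCs and for Miat and Neat1 in IPCs against NSCs. Meg3 was higher in OPCs by 6.05 ± 0.30 on the log2 scale (SE, adjusted p = 5.35e-18) in 7 of 7 experiments. Without experiment 1 at 2 months the Meg3 value was 5.34 and without experiment 2 at 6 months 6.89, and it was 9.10 in Version 2 and 5.22 in Version 3 alone. With 1 Meg3 UMI in all Version 2 NSCs, the 9.10 rests on the counting model. Snhg11 was higher by 7.66 ± 0.42 on the log2 scale (adjusted p = 4.64e-17), but with 1 UMI in NSCs this value rests on the counting model, and was 6.87 without the 1-month experiment and 10.7 without experiment 1 at 2 months, which held that UMI. Pooled over experiments, the OPC level was 405 times that of NSCs with an exact 95% interval of 72.6 to 15999, which covers counting error only.

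Neat1 differed in the other direction and was lower in OPCs in 7 of 7 experiments, with overlapping ranges over experiments and 17.4 ± 17.3 CPM against 140 ± 77.3 CPM. The log2 fold change was -3.61 ± 0.20 (adjusted p = 1.49e-16 by edgeR). Malat1 did not pass, at -0.27 ± 0.15 on the log2 scale (adjusted p = 0.109 by edgeR), and its levels of 70149 ± 23692 and 71241 ± 24145 CPM overlapped. It passed without experiment 2 at 6 months (log2 -0.34, adjusted p = 0.0169). Miat, in 14.9% of OPCs, was below the filter. Its level of 33.02 ± 10.6 CPM in OPCs was above the 4.96 ± 6.71 CPM of NSCs in all 7 experiments, and was not tested. In experiments 2 and 3 at 2 months the sparse NSC sums held no Miat or Snhg11 UMI. A count of 0 there allows up to 48.5 and 86.9 CPM (95% limits), near or above the OPC levels, so these directions are unsure.

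Among other long noncoding RNAs, 4 of 11 tested genes were higher and 6 lower in OPCs than in NSCs, with a median log2 fold change of -0.47 against 0.08 over all genes. Over all 5629 genes tested 1930 were higher and 1592 lower. Mir124a-1hg, the host of a microRNA of neurons, was at 42.5 ± 8.06 CPM in OPCs and 0.898 ± 1.73 CPM in NSCs (log2 4.07 ± 0.38). Mir9-3hg, a microRNA host of neural progenitors, was higher by 1.25 ± 0.15 on the log2 scale. Hopxos, transcribed opposite the NSC gene Hopx, was at 0.625 ± 0.828 CPM in OPCs against 287 ± 82.4 CPM, and Rmst, which binds the stem cell factor Sox2, at 0.36 ± 0.845 CPM against 96.9 ± 55.2 CPM.

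Oligodendrocytes were next compared with OPCs, the other end of the same lineage. Of 4 tested members 3 passed, where 80.1% of all genes did. Meg3 was lower in oligodendrocytes by 6.67 on the log2 scale (-6.67 ± 0.32, adjusted p = 1.9e-10 by edgeR, and -7.59 in Version 2 alone) and Snhg11 likewise (-3.75 ± 0.15, adjusted p = 2.59e-11), both in 7 of 7 experiments and without overlap. Neat1 was higher (5.31 ± 0.27, adjusted p = 3.36e-10 by edgeR, and 3.94 in Version 2 alone), at 313 ± 141 CPM (lowest 109, median 306, highest 561) against 17.4 ± 17.3 CPM. Miat fell below the filter in both types, with 2.49 ± 2.20 CPM in oligodendrocytes and no overlap with OPCs.

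COPs are the cells that leave the precursor state. Their mean for Meg3, 33.9 CPM, stood between those of OPCs and oligodendrocytes, and in the 5 experiments with at least 10 COPs the single values (1 month, then experiments 1 and 3 at 2 months and 2 and 3 at 6 months) were 8.67, 60.04, 74.2, 19.2 and 7.31 CPM. Neat1 in the same COP samples was 30.3, 46.7, 74.2, 19.2 and 22.8 CPM, above OPCs in all 5 experiments. These values rest on few molecules, with 33 UMIs of Meg3 and 58 of Neat1 in 174 COPs. For both genes 74.2 CPM stood at the level of 3 counts, in 12 cells. The Malat1 difference between oligodendrocytes and OPCs depended on scaling, with 0.23 ± 0.11 on the log2 scale (adjusted p = 0.0579 by edgeR with TMM scaling) and -0.30 when scaled by total UMIs, and no direction is given.

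Cycling OPCs were compared by value only, since 3 experiments held at least 10 dividing OPCs. Meg3 in dividing OPCs was at 83.3, 72.6 and 121 CPM, against 173, 177 and 349 CPM in the non-dividing OPCs of the same experiments (1 month, and experiments 2 and 3 at 6 months). Snhg11 was at 43.8, 47.4 and 44.3 CPM against 51.1, 84.5 and 111 CPM. Both genes were lower in the dividing cells in each of the 3 experiments, and this was not tested. Dividing OPCs were deeper, with medians of 8883, 12378.5 and 13076 UMIs against 6299, 6763 and 8181 in the non-dividing ones. A Snhg11 UMI was in 35.7% of these dividing OPCs, all of Version 3, and in 37.9% of all OPCs of the 4 Version 3 experiments, which include them. For Meg3 these shares were 61.6% and 68.6%. Malat1 also had a lower mean, at 44630 against 73923 CPM in the same sets. The part of depth was not tested.

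Mir9-3hg and Mir124a-1hg, the microRNA hosts above, were lower in oligodendrocytes by -5.75 ± 0.20 and -5.99 ± 0.35 on the log2 scale, and 1 of 9 tested genes of that list was higher and 6 lower (median log2 -1.37, all genes -0.01). Qk, an RNA-binding protein that myelin mRNAs need, was higher at 2030 ± 853 CPM against 857 ± 252 CPM (log2 1.71 ± 0.09), and the imprinted splicing gene Snrpn gave 0.61 ± 0.12, with a higher CPM in 4 of 7 experiments. Of 15 paraspeckle protein genes tested, 0 were higher and 10 lower in oligodendrocytes, with a median log2 fold change of -0.29. Of 16 nuclear speckle protein genes 6 were higher and 4 lower (median -0.08). Over all 5641 genes tested 2221 were higher and 2295 lower. Among imprinted genes outside the Dlk1-Dio3 domain 1 of 7 was higher and 4 lower (median -0.97), and of 4 other host genes of small nucleolar RNAs 0 were higher and 2 lower (median -0.23).

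**Figure D2:**
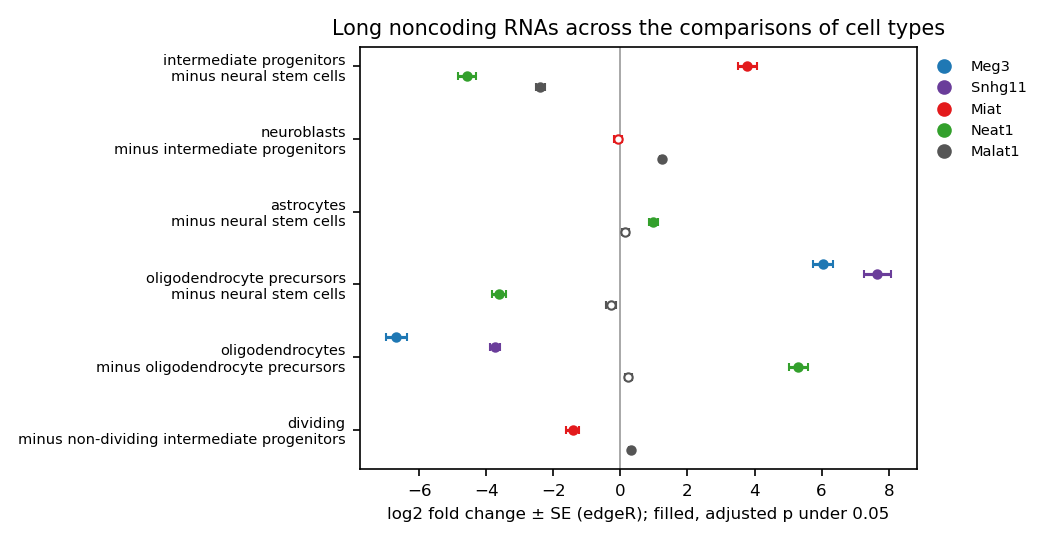
Log2 fold change with SE from edgeR for each tested member in the 6 comparisons of cell types; filled points have an adjusted p under 0.05. Meg3 and Snhg11 lie far to the right in OPCs against NSCs and far to the left in oligodendrocytes against OPCs, opposite to Neat1.

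The first neurogenic step was read by comparing IPCs with NSCs. Miat was at 69.9 ± 17.6 CPM in IPCs (lowest 49.2, median 70.4, highest 97.3) and at 4.96 ± 6.71 CPM in NSCs (lowest 0, median 3.85, highest 18.6), without overlap. The 3 members that passed the filter all passed the test, where 63.9% of all genes did. Miat was higher in IPCs by 3.79 ± 0.29 on the log2 scale (adjusted p = 4.29e-12 by edgeR) in 7 of 7 experiments. That value was 4.55 with a stricter gate and 2.96 with cells of mixed lineage kept. The NSC sums of experiments 2 and 3 at 2 months held no Miat UMI. A count of 0 there allows up to 48.5 and 86.9 CPM (95% limits), so the gap in these experiments is unsure. A UMI of Miat was in 37.05% ± 15.3 of IPCs and 2.16% ± 2.69 of NSCs, and in 10.04% ± 3.63 and 0.69% ± 1.05 after thinning, which left out 4 and 40 shallower cells.

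Both nuclear body RNAs were lower in IPCs. Malat1 dropped from 71241 ± 24145 CPM in NSCs to 15447 ± 4999 CPM in IPCs (log2 -2.38 ± 0.14, adjusted p = 2.14e-14 by edgeR), without overlap. Neat1 dropped from 140 ± 77.3 to 8.53 ± 7.22 CPM (log2 -4.58 ± 0.26, adjusted p = 6.1e-15 by edgeR), also without overlap. IPCs had median depths of 3245.5 to 14647 UMIs per experiment against 1364 to 7388 in NSCs, and the thinned share of cells with a Neat1 UMI was 1.46% ± 1.95 against 19.02% ± 8.91. Meg3 and Snhg11 were below the filter in both types, with 6 and 5 UMIs in all IPCs.

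Genes listed as paraspeckle or nuclear speckle proteins were counted next. The nuclear speckle list also holds the RNA-binding proteins Qk and Celf3. Of 16 paraspeckle protein genes tested, 13 were higher in IPCs than in NSCs and 0 lower (median log2 1.18, all genes 0.03), and of 17 nuclear speckle protein genes 9 were higher and 3 lower (median 0.31). Over all 5397 genes tested 1750 were higher and 1701 lower. Hnrnpa1, a splicing regulator, was at 1386 ± 180 CPM against 242 ± 35.8 CPM (log2 2.28 ± 0.12). Qk was lower at 99.5 ± 24.5 against 698 ± 220 CPM. Hopxos was lower by -3.81 ± 0.17 on the log2 scale. Mest, a paternally expressed imprinted gene, was higher at 60.8 ± 22.8 against 14.6 ± 9.28 CPM, within a list of which 3 of 8 were higher and 3 lower (median -0.14). Other long noncoding RNAs had 2 of 10 higher and 4 lower (median 0.05), and host genes of small nucleolar RNAs 1 of 5 higher and 2 lower (median 0.35).

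Within IPCs, Miat differed with division. Cells with at least 3 of 8 mitosis markers were called dividing and those with at most 1 non-dividing, and 6 experiments held at least 10 cells of each. Miat in dividing IPCs was at 50.7 CPM at 1 month, at 38.8, 11.6 and 42.7 CPM at 2 months and at 40.05 and 60.4 CPM at 6 months, a mean of 40.7 ± 16.4 CPM. Non-dividing IPCs of the same experiments had 139.5, 101, 79.1, 87.7, 109 and 161 CPM, a mean of 113 ± 31.5 CPM. No dividing value reached the lowest non-dividing one. Experiment 2 at 6 months was left out with 3 non-dividing IPCs. Their Miat level was 45.1 CPM, from a sum of only 22168 UMIs of all genes, against 44.02 CPM in the dividing ones. Of 2 members tested, both passed, where 25.7% of all genes did. Miat was lower in dividing IPCs by -1.42 ± 0.19 on the log2 scale (adjusted p = 3.87e-10 by edgeR), in 6 of 6 experiments. A Miat UMI was in 31.8% of these dividing and 40.9% of these non-dividing IPCs. The dividing cells were deeper in each experiment, and the part of depth was not tested.

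Malat1 was higher in dividing IPCs by 0.32 ± 0.05 on the log2 scale (adjusted p = 5.53e-07 by edgeR with the experiment as block) in 5 of 6 experiments, but the levels of 16611 ± 5127 and 13668 ± 5429 CPM overlapped and the call was lost without the block (adjusted p = 0.566). Dividing IPCs were deeper in each experiment, with medians of 4327 to 16746 UMIs against 3030 to 12090 in non-dividing IPCs, and the part of depth was not tested. In dividing IPCs 6 of 16 paraspeckle and 5 of 17 nuclear speckle protein genes were higher and 0 lower. Their median log2 fold changes were 0.25 and 0.20, against -0.04 over all genes. Of all 5601 genes tested 761 were higher and 680 lower. Rbmx (log2 0.60 ± 0.12) and the splicing factor Srsf7 (0.44 ± 0.09) led these lists. Mest was lower at 39.3 ± 12.4 against 95.5 ± 26.6 CPM (log2 -1.32 ± 0.22), and the small nucleolar RNA host gene Snhg9 was lower by -0.70 ± 0.27. Of 6 imprinted genes 0 were higher and 3 lower (median -0.25), of 5 host genes 0 and 2 (median -0.47), and of 9 other long noncoding RNAs 1 and 1 (median 0.08).

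**Figure D3:**
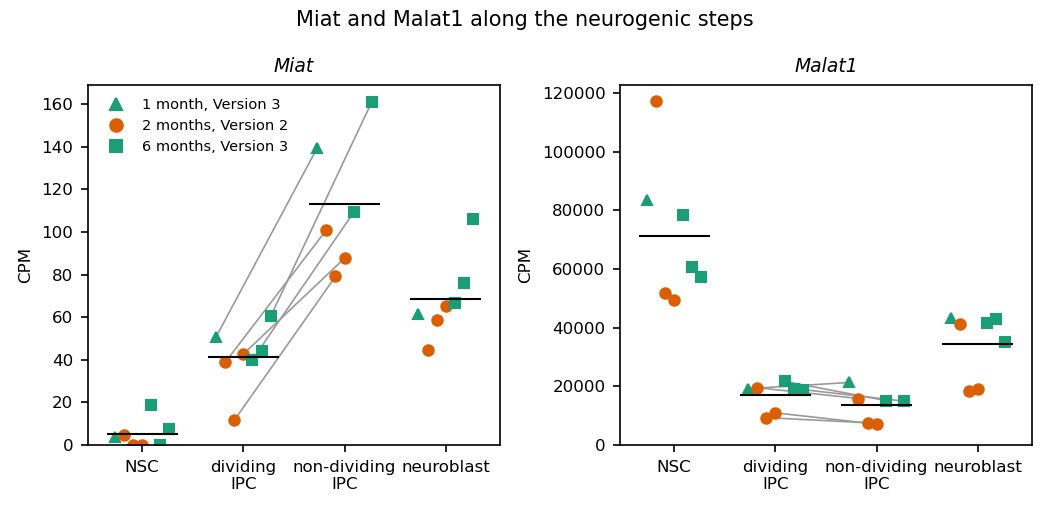
Level (CPM) of Miat and Malat1 in NSCs, dividing and non-dividing IPCs and neuroblasts, with 1 point per experiment of at least 10 cells, a line at the mean, and grey lines joining the same experiment. Miat was higher in non-dividing than in dividing IPCs in all 6 joined experiments, and Malat1 was lowest in IPCs.

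Between IPCs and neuroblasts the Miat levels overlapped. Neuroblasts had 68.3 ± 19.2 CPM (lowest 44.6, median 65.2, highest 106), above IPCs in 3 of 7 experiments. The log2 fold change was -0.07 ± 0.12 (adjusted p = 0.602 by edgeR). The IPC level joined dividing cells, at 40.7 ± 16.4 CPM, and non-dividing cells, at 113 ± 31.5 CPM (n = 6 experiments). In each of these experiments the neuroblast level of Miat lay between the dividing and the non-dividing IPC level, which was not tested. Malat1 was higher in neuroblasts at 34513 ± 11148 CPM against 15447 ± 4999 CPM (log2 1.23 ± 0.04, adjusted p = 6.01e-17 by edgeR) in 7 of 7 experiments, although the ranges over experiments overlapped. Thus 1 of 2 tested members passed, where 67.2% of all genes did. Across neuroblast classes by thinned immature neuron markers, Malat1 was at 26465 ± 10688, 31928 ± 11594 and 37998 ± 12965 CPM with 0, 1 and 2 or more markers. The ranges overlapped, but within each of the 7 experiments the level was higher with 1 than with 0 markers and highest with 2 or more, which was not tested. Median depth fell in the same order of classes within each experiment, for example 8272, 8121.5 and 7551.5 UMIs at 1 month. Its part in the Malat1 order was not tested.

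In neuroblasts against IPCs, 0 of 16 paraspeckle protein genes were higher and 11 lower (median log2 -0.29, all genes 0.01), and of 18 nuclear speckle protein genes 4 were higher and 9 lower (median -0.21). Over all 5244 genes tested 1792 were higher and 1734 lower. Celf3, an RNA-binding protein of neurons, was at 121 ± 11.3 CPM against 24.4 ± 12.8 CPM (log2 2.46 ± 0.15). Mir124a-1hg was at 74.7 ± 22.7 against 6.00 ± 3.66 CPM, while Mir9-3hg and Rmst were lower by -1.17 ± 0.11 and -0.81 ± 0.18 on the log2 scale. Of 11 other long noncoding RNAs tested 6 were higher and 4 lower (median 0.28), of 5 small nucleolar RNA host genes 3 and 1 (median 0.27), and of 9 imprinted genes 8 and 0 (median 1.01).

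Astrocytes share much of their expression with NSCs, and were compared with them. Neat1 was the member that passed, of 2 tested, where 51.3% of all genes did. It was at 268 ± 158 CPM in astrocytes (lowest 118, median 162, highest 474) against 140 ± 77.3 CPM in NSCs, higher in 7 of 7 experiments with overlapping ranges. The log2 fold change was 0.98 ± 0.14 (adjusted p = 1.53e-06 by edgeR). Malat1 gave 0.15 ± 0.10 (adjusted p = 0.241 by edgeR), with 71214 ± 32376 CPM in astrocytes, and passed without experiment 3 at 2 months (0.22, adjusted p = 0.0187). Hopxos separated these types by -3.03 ± 0.21 on the log2 scale and Hnrnpa1 by -1.38 ± 0.12, whereas Son, a scaffold protein of nuclear speckles, was higher at 1277 ± 241 against 753 ± 145 CPM and Rmst by 0.70 ± 0.14. Of 12 paraspeckle protein genes 0 were higher and 6 lower (median -0.28, all genes -0.04), of 16 nuclear speckle genes 2 and 3, of 9 other long noncoding RNAs 4 and 3, of 7 imprinted genes 0 and 2, and of 3 host genes 0 and 1. Over all 3564 genes tested 923 were higher and 907 lower.

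In the OPC comparison with NSCs the same lists gave 4 higher and 2 lower of 15 paraspeckle genes (median 0.06), 1 and 4 of 16 nuclear speckle genes (median -0.07), 2 and 3 of 7 imprinted genes (median 0.12) and 1 and 2 of 4 small nucleolar RNA host genes (median -0.59). All 5629 genes tested gave 1930 higher and 1592 lower. Of the Dlk1-Dio3 domain, Meg3 was the 1 gene of 5 with a row that passed the filter in any comparison. Mirg, a microRNA host downstream of Rian, had 72 UMIs in OPCs (2.43 ± 1.14 CPM) and 9 in the 26 immature granule neurons (51.2 CPM), and no UMI in NSCs, IPCs or neuroblasts. Dlk1, the paternally expressed end of the domain, had 12 UMIs in astrocytes and 5 in the immature granule neurons as its largest counts, and Rtl1 and Dio3 had 1 and 2 UMIs in gated types.

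The levels of some members also split by chemistry, and therefore by age. In OPCs Meg3 was at 1275, 522 and 735 CPM in the Version 2 experiments and at 168, 305, 174 and 338 CPM in the Version 3 experiments (1 month, then 6 months), without overlap. Meg3 was 1 of 3 members tested to pass here, where 40% of all genes did. Version 3 was lower by -1.88 ± 0.26 on the log2 scale (adjusted p = 2.29e-05 by edgeR). Both libraries of experiment 1 at 2 months, labelled as different sorts, gave like Meg3 levels in OPCs, 1269 and 1275 CPM. Snhg11 in the same cells stood at 105, 56.8 and 65.5 CPM in Version 2 and 50.1, 56.9, 83.2 and 108 CPM in Version 3, with overlap (log2 -0.06 ± 0.25, adjusted p = 0.877 by edgeR).

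**Figure D4:**
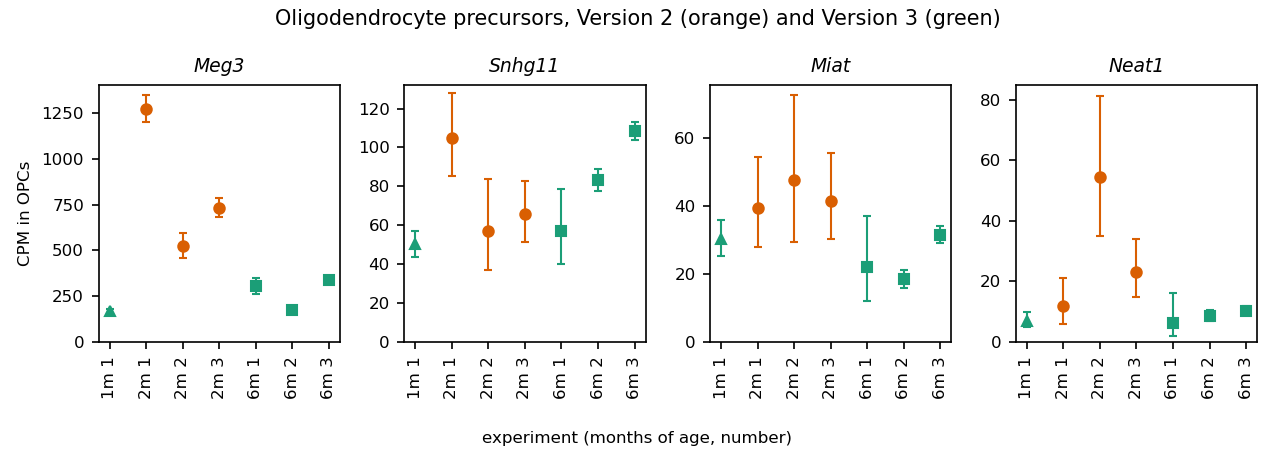
Level (CPM) of 4 members in OPCs of each experiment, with exact 95% Poisson intervals for counting error; labels give months of age and experiment number. Meg3, Miat and Neat1 lie higher in every 2-month experiment (orange) than in any other (green), while Snhg11 overlaps.

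Miat and Neat1 in OPCs were below the filter and were not tested between chemistries. Miat was at 39.6, 47.7 and 41.5 CPM in Version 2 and 30.2, 22.1, 18.4 and 31.5 CPM in Version 3, and Neat1 at 11.8, 54.5 and 23.1 against 6.996, 6.32, 8.57 and 10.2 CPM, each without overlap. In astrocytes Neat1 was at 387, 442 and 474 CPM in Version 2 and 138, 154, 118 and 162 CPM in Version 3, also apart, and that contrast was not among the tests made. In NSCs Neat1 was at 236, 237 and 141 CPM in Version 2 and 65.5, 99.4, 41.6 and 161 CPM in Version 3, a log2 difference of -1.34 ± 0.33 (adjusted p = 0.0129 by edgeR), where 9.21% of all genes passed and 1 of 2 tested members did. The call was lost without experiment 1 at 2 months (log2 -1.13, adjusted p = 0.226).

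In neuroblasts Meg3, below the filter, was at 30.1, 37.7 and 16.6 CPM in Version 2 and at 2.42, 3.83, 1.27 and 5.13 CPM in Version 3, without overlap. Of 2 members tested there 1 passed, where 34.3% of all genes did. Malat1 was higher in Version 3 by 0.60 ± 0.23 on the log2 scale (adjusted p = 0.0466 by edgeR), with 41135, 18270 and 19117 CPM in Version 2 and 43287, 41759, 42951 and 35071 CPM in Version 3. That call was lost in 6 of the 7 fits that left out 1 experiment, all but the one without experiment 1 at 2 months, where it gave 1.11 (adjusted p = 4.23e-06). Miat entered the filter only through Version 3, where 42.7% of neuroblasts held a UMI, against 15.4% in Version 2. Miat gave 0.44 ± 0.20 (adjusted p = 0.0912 by edgeR), at 44.6, 58.6 and 65.2 CPM against 61.4, 66.6, 75.9 and 106 CPM. Miat passed without the 1-month experiment (0.56, adjusted p = 0.0411 by edgeR), which is no support, since Miat entered through the higher group alone.

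Malat1 did not pass between chemistries in NSCs (log2 -0.09 ± 0.27, adjusted p = 0.916 by edgeR) or OPCs (0.12 ± 0.29, adjusted p = 0.769). In both, experiment 1 at 2 months stood above the other Version 2 experiments, with 117423 CPM against 51808 and 49435 CPM in NSCs and 109432 CPM against 45222 and 40700 CPM in OPCs. Without it Malat1 was higher in Version 3 OPCs by 0.74 on the log2 scale (adjusted p = 0.0048 by edgeR), and in NSCs the value was 0.50 (adjusted p = 0.201).

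Differences between cell types were also tested against chemistry. No tested member changed its contrast between Version 2 and Version 3 at an adjusted p of 0.05, for IPCs against NSCs (0 of 3, where 0.148% of all genes passed), neuroblasts against IPCs (0 of 2, 0.305%) or OPCs against NSCs (0 of 4, 0.284%). The exception among alternatives was Malat1 between neuroblasts and IPCs with a stricter gate (log2 -0.31, adjusted p = 0.0315 by edgeR), and DESeq2 called 0 members. At an unadjusted p under 0.05, 1 member in each of the 3 fits and 497, 475 and 443 of all tested genes would count. The nearest were Malat1 between IPCs and NSCs (log2 0.68 ± 0.25, adjusted p = 0.32) and Meg3 between OPCs and NSCs (-3.75 ± 1.25, adjusted p = 0.368), the latter with 1 UMI of Meg3 in all Version 2 NSCs.

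With chemistry held at Version 3, age was read from 1 experiment at 1 month and 3 at 6 months, without a test. Meg3 in OPCs was 168 CPM at 1 month and 272 ± 87.0 CPM at 6 months, and Snhg11 was 50.1 and 82.8 ± 25.8 CPM. Miat in neuroblasts was 61.4 CPM at 1 month and 82.9 ± 20.6 CPM at 6 months, and in OPCs 30.2 and 24.02 ± 6.73 CPM. For Meg3 and Snhg11 in OPCs and Miat in neuroblasts the 1-month value lay below each 6-month value. For Meg3 the gap to the lowest 6-month value was small, 168 against 174 CPM. Neat1 in oligodendrocytes was 109 CPM at 1 month, in 16 cells, and 349 ± 183 CPM at 6 months. Malat1 in NSCs went the other way, at 83640 and 65460 ± 11355 CPM. Other members and types are not all given.

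Over 9 cell types and 10686 genes with at least 20 CPM in 1 type, the profiles most like each member by Pearson's r of mean log2(CPM + 1) were named as a description, since all types share libraries. The 9 types leave out immature granule neurons and Cajal-Retzius cells, where Meg3 and Snhg11 were highest, and microglia. S1pr2, Ntn1, Cspg4 (the NG2 proteoglycan of OPCs and pericytes), Fam222b and Tmem86a were most like Meg3 (r = 0.93 to 0.96). Cspg4 is itself a marker of the OPC gate, which favours its likeness to a gene high in OPCs. For Snhg11 they were Itga9, Osbpl6, Med13l, Galnt10 and Gorasp1 (r = 0.91 to 0.94). Nsg2, Pcp4, Bap1, Ncoa5 and Cnih2 were most like Miat (r = 0.97 to 0.98), each of them highest in neuroblasts. Dazap2, Add3, Rfxank, Dnajc3 and Necap2 were most like Neat1 (r = 0.91 to 0.96), and Smim19, Pdk2, Tex264, Pmvk and Aup1 most like Malat1 (r = 0.92 to 0.95).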

How the data were processed

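Dentate gyrus cells were sequenced by droplet 3′ RNA-seq. The authors mapped reads with Cell Ranger 3.0.2 to mm10 with reporter sequences added, and merged the 8 libraries unnormalized. Per the file headers, the deposited counts are raw UMIs for each gene and barcode. Barcodes with over 500 genes and under 10% mitochondrial counts were kept. A cell took the type with at least 3 detected markers and a lead of 2 over every other list. Cells in which markers of another lineage exceeded 0.5 of their own (720) were left out as likely doublets, and no doublet caller was run. The gate had 1667 cells at its lead limit and 1909 short of it by 1 marker. Counts were summed per experiment and type, with both libraries of experiment 1 at 2 months added and at least 10 cells required.

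Genes detected in 20% or more of the cells of either type entered edgeR 4.0.16 (R 4.3.3; quasi-likelihood test, TMM scaling, Benjamini-Hochberg adjustment), with the experiment as block because its cells came from the same pool of mice. Chemistries were compared without a block, and standard errors are the fold change over the root of the test statistic. With the block, the p-values measure how the difference within an experiment varied over experiments, and without it how the levels varied. Each experiment was a pool of mice. Alternatives were DESeq2 1.42.0, total-UMI scaling, no filter, a stricter gate, no block, 1 chemistry alone, leaving out each experiment and, chosen after seeing the data, keeping cells of mixed lineage. Shares of cells were also taken after thinning to 1500 UMIs. The fits were tested on simulated data.

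Gene lists covered the Dlk1-Dio3 domain, other imprinted genes, other small nucleolar RNA host genes, other long noncoding RNAs, paraspeckle proteins and nuclear speckle proteins. The last list was drawn broadly, with the RNA-binding proteins Qk and Celf3 in it. Named were the Dlk1-Dio3 genes, the 2 largest rises and falls over the lists in each comparison of cell types, and the 5 profiles most like each member. The members and lists were chosen with earlier results of these data known. Intervals cover counting error only.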

Additional observations from a re-analysis of the deposited data

Results flagged for a closer look

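In 12 of 45 groups of 5 or 7 experiments, a group being 1 member in 1 cell type, the level of a member in 1 experiment stood apart from the others by Dixon's criterion at 95%. Chance alone gives this in about 1 of 20 groups if values are normal and groups independent. Sparse counts and shared libraries break this, so 12 of 45 cannot be read as an excess. In each case it was the highest value.

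Several rested on 1 to 3 UMIs. Meg3 in endothelial cells was at 15.2 CPM in experiment 3 at 2 months (1 UMI, next highest 6.12 CPM), and Miat in the same cells was also at 15.2 CPM (1 UMI, next 3.06 CPM). Miat was at 18.6 CPM in NSCs of experiment 1 at 6 months (3 UMIs, next 7.69 CPM), at 11.6 CPM in astrocytes of experiment 3 at 2 months (1 UMI, next 4.47 CPM) and at 3.76 CPM in mural cells of experiment 2 at 6 months (2 UMIs, next 1.39 CPM). Snhg11 was at 2.27 CPM in NSCs of experiment 1 at 2 months (1 UMI) and at 6.64 CPM in endothelial cells of the 1-month experiment (2 UMIs), with no UMI in any other experiment.

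The others rested on more molecules. Meg3 in mural cells of experiment 1 at 2 months was at 1287 CPM (273 UMIs in 171 cells, next 317 CPM). Malat1 in astrocytes of the same experiment was at 135741 CPM, next 76870 CPM. Neat1 stood highest in experiment 2 at 2 months in neuroblasts (25.6 CPM, 38 UMIs, next 6.21 CPM), OPCs (54.5 CPM, 24 UMIs, next 23.1 CPM) and mural cells (284 CPM, 23 UMIs, next 118 CPM).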

How the results depend on the processing

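Of the 16 results of members that passed the test, 216 of 227 refits passed in the same direction, 11 no longer passed and 0 changed sign. Among these are the contrasts whose members entered the filter through 1 type and had to differ. For those contrasts this tally is no support. Of the 17 results that did not pass, 125 of 151 refits were alike, 9 passed and 17 changed sign. The cause of these changes was not tested. The comparison of immature granule neurons with neuroblasts and its alternatives were not run, since 1 experiment held at least 10 such neurons.

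Without the replicate block, which pairs cell types of the same pools of mice, 1181 genes were called between astrocytes and NSCs and 618 between dividing and non-dividing IPCs, where Malat1 no longer passed (0.28). With no filter on low counts 6172 genes were called for IPCs against NSCs, 6507 for neuroblasts against IPCs, 3366 for astrocytes and 7163 for OPCs against NSCs, 10792 for oligodendrocytes against OPCs, and 2919 and 3626 between chemistries in neuroblasts and OPCs. In the same order of the 5 comparisons of cell types, Version 2 alone called 1941, 1984, 956, 1245 and 1868 genes. Dividing against non-dividing IPCs gave 679 with DESeq2, 706 with a stricter gate, 798 in Version 3 and 755 in Version 2. Between chemistries in NSCs DESeq2 called 210 and the stricter gate 214.

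The difference between chemistries of IPCs against NSCs had 2 calls with DESeq2, 23 with no filter, 23 with the stricter gate and 34 with cells of mixed lineage kept. That of neuroblasts against IPCs had 10 with total UMIs, 1 with DESeq2, 59 with no filter, 7 with the stricter gate and 5 with mixed cells kept, and that of OPCs against NSCs 34 with no filter and 7 with mixed cells kept.

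Among members (log2), Malat1 in astrocytes against NSCs was -0.054 with total UMIs. In OPCs against NSCs it passed in Version 2 alone (-0.23). In oligodendrocytes against OPCs it was -0.30 with total UMIs, 0.44 with no filter and 0.24 with mixed cells kept, all past the threshold, and -0.10 in Version 2. Between chemistries in NSCs Malat1 was 0.14 with no filter and Neat1 -1.17 with the stricter gate (adjusted p = 0.062 by edgeR). In neuroblasts Malat1 no longer passed with DESeq2 (0.60) or the stricter gate (0.58), and Miat passed with no filter (0.54). In OPCs Snhg11 was 0.0065 with total UMIs and 0.066 with no filter. For the differences between chemistries Neat1 was 0.32 with mixed cells kept (IPCs against NSCs), Miat -0.066 and Malat1 -0.31 with the stricter gate and Miat -0.026 with mixed cells kept (neuroblasts against IPCs), and Snhg11 -0.74 with the stricter gate (OPCs against NSCs).

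Leaving out 1 experiment at a time gave -0.12 to 0.083 for Miat in neuroblasts against IPCs, 0.084 to 0.22 for Malat1 in astrocytes and -0.34 to -0.20 in OPCs against NSCs. Between chemistries it gave 176 to 385 genes called, -0.32 to 0.50 for Malat1 and -1.82 to -1.13 for Neat1 in NSCs, 0.23 to 0.56 for Miat and 0.38 to 1.11 for Malat1 in neuroblasts, and -0.30 to 0.29 for Snhg11 and -0.13 to 0.74 for Malat1 in OPCs. Depth limits the low members most, since a count of 0 in the sparsest sum of NSCs, 42440 UMIs, allows a level of up to 70.7 CPM by the limit of 3 counts.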
